A study of Mus musculus with 12 samples.

Results

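Airway secretory cells make the fluid and mucus layers that line the bronchi, and the genes described here encode their best known products: the secretoglobins Scgb1a1, Scgb3a1 and Scgb3a2, the BPI fold protein Bpifa1 (also called Plunc), the mucins Muc5b, Muc5ac, Muc1, Muc4 and Muc16, and the transcription factor Spdef. These 10 genes were chosen by name, out of 18194 genes measured. Earlier results of these data were known when they and the gene lists used below were chosen. The 10 genes were read by 12 of the 45101 probe sets of the array, since Muc4 had 3 probe sets and each of the other genes had 1.

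Whole lungs of C57BL/6 mice were compared in 4 groups of 3 Affymetrix arrays: wild type mice given saline, wild type mice given bleomycin, FIZZ2 knockout mice given saline and FIZZ2 knockout mice given bleomycin. Saline or bleomycin, a drug used to bring on lung injury and fibrosis in mice, was injected into the trachea, and lungs perfused with PBS were harvested at day 21. FIZZ2 is the secreted protein encoded by Retnlb. The age and sex of the mice, the kind of knockout allele and whether each array held the RNA of a separate mouse are not given in the sources used here, and p-values here speak to array-to-array spread, which may be technical. Values are log2 RMA intensities. A change is a difference of group means on that log2 scale, and a gene was called when its Benjamini-Hochberg adjusted p from limma, fitted over all 18194 genes, was under 0.05.

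Background to these genes is as follows. Secretoglobins are small secreted proteins; in the mouse, club cells of the bronchioles make Scgb1a1 and Scgb3a2, while Scgb3a1 and Bpifa1 are typical of the larger airways. Muc5b and Muc5ac are the gel-forming mucins of airway mucus, of which Muc5b is the one made by unchallenged airways, whereas Muc1, Muc4 and Muc16 are anchored in the cell membrane and shield the cell surface. Spdef drives the goblet cell programme, in which cells fill with mucin granules.

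RefSeq promoter sequences (build GRCm38.p6, 250 bases before to 50 after the annotated start) were at hand for 6 of the 10 genes: Scgb3a1, Muc1, Muc4, Muc16, Bpifa1 and Spdef. They are shown for 3 of them, Scgb3a1 and Bpifa1 because these genes deviated together from array to array, and Spdef because its response differed between the genotypes. Each reads 5′ to 3′ on the strand of its gene, and capitals mark the letters of a forkhead motif (TGTTTGC or TATTTAC), of an NKX2-1 motif (CTTGAG) or of a TATA box (TATAAA), searched on both strands; no match overlapped another.
Scgb3a1, chr11:49663345-49663644, plus strand: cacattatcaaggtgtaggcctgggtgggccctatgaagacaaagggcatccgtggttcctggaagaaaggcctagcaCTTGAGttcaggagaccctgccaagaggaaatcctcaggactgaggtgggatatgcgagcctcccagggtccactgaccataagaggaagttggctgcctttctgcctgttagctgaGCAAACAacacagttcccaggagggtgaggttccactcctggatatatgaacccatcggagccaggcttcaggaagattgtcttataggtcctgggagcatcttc
Bpifa1, chr2:154142630-154142929, plus strand: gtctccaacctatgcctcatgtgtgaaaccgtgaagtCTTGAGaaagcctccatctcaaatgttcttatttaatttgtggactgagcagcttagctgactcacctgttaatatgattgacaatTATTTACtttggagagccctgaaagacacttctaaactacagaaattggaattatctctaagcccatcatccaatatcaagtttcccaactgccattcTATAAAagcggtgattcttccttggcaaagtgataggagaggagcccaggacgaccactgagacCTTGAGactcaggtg
Spdef, chr17:27728902-27729201, minus strand: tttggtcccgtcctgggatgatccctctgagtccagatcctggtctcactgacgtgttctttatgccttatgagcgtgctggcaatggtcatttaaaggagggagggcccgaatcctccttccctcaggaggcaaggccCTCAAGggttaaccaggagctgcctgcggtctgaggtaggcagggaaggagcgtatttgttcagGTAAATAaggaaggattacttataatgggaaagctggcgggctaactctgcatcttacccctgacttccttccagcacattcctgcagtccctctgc
The Scgb3a1 window held CTTGAG from base -172 relative to the start and TGTTTGC, on the opposite strand, from base -55. The Bpifa1 window held CTTGAG from bases -213 and 35, TATTTAC from base -127 and TATAAA from base -29. The Spdef window held both of its matches on the opposite strand, CTTGAG from base -111 and TATTTAC from base -47. Over the 32851 promoters of the table, TGTTTGC occurred in 5.07%, TATTTAC in 3.04%, CTTGAG in 15.9% and TATAAA in 13.6%. The motifs were chosen with these sequences in view, and a match describes letters and not a bound site.

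Arrays within a group were alike, with Pearson r over all probe sets from 0.9882 to 0.9972. Club and goblet cells were checked by their markers. The club cell markers Scgb1a1, Scgb3a2, Cyp2f2 and Cbr2 all had means above 13 on the log2 scale. For goblet cells the check is given only for markers that are themselves among the genes under study, Muc5b, Muc5ac and Spdef. It is therefore a partial check of these cells. Muc5b had a mean of 8.81, whereas Muc5ac and Spdef had means of 5.23 and 4.62, below the array medians of 5.581 to 5.675. On the single arrays Muc5ac stood at the 43.4th to 50.5th percentile of all probe sets and Spdef at the 33.5th to 41.5th, and no detection call was at hand to say whether either was above background. Retnlb itself lay between 3.494 and 4.135 on all arrays, at 3.805 to 4.135 in wild type and 3.494 to 3.723 in knockout lungs after bleomycin, between percentiles 17.0 and 31.1, which was too low to serve as a check of the genotype labels.

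In wild type lungs, 3 of the 10 genes were called lower after bleomycin: the secretoglobin Scgb3a2, the gel-forming mucin Muc5b and the goblet cell factor Spdef. None was called higher. Of all genes, 27.7% were called in this comparison and 14.4% were called lower (13.3% higher), so 3 of 10 stood close to the share of genes called in either direction. The median change of the 10 genes was -0.50 (log2) against -0.04 over all genes, and 9 of the 10 changes were negative. In 5 genes, Scgb1a1, Scgb3a2, Muc5b, Muc16 and Spdef, the 3 bleomycin arrays all lay below the 3 saline arrays, a pattern shown by 22.8% of all genes.

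In knockout lungs, limma called none of the 10 genes after bleomycin, against 3.26% of all genes, and 4 had an unadjusted p under 0.05. Their median change was -0.12 against 0.01 over all genes, with 6 negative and 4 positive values. All bleomycin arrays lay below all saline arrays for 2 of the genes, Scgb1a1 and Scgb3a2 (11.8% of all genes), and above them for another 2, Muc1 and Muc4 (15.2%). The change was less negative or more positive in knockout than in wild type for all 10 genes, with a median difference of 0.31 against 0.04 over all genes. The difference itself was called for Spdef alone, against a background of 5.02%.

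**Figure D1:**
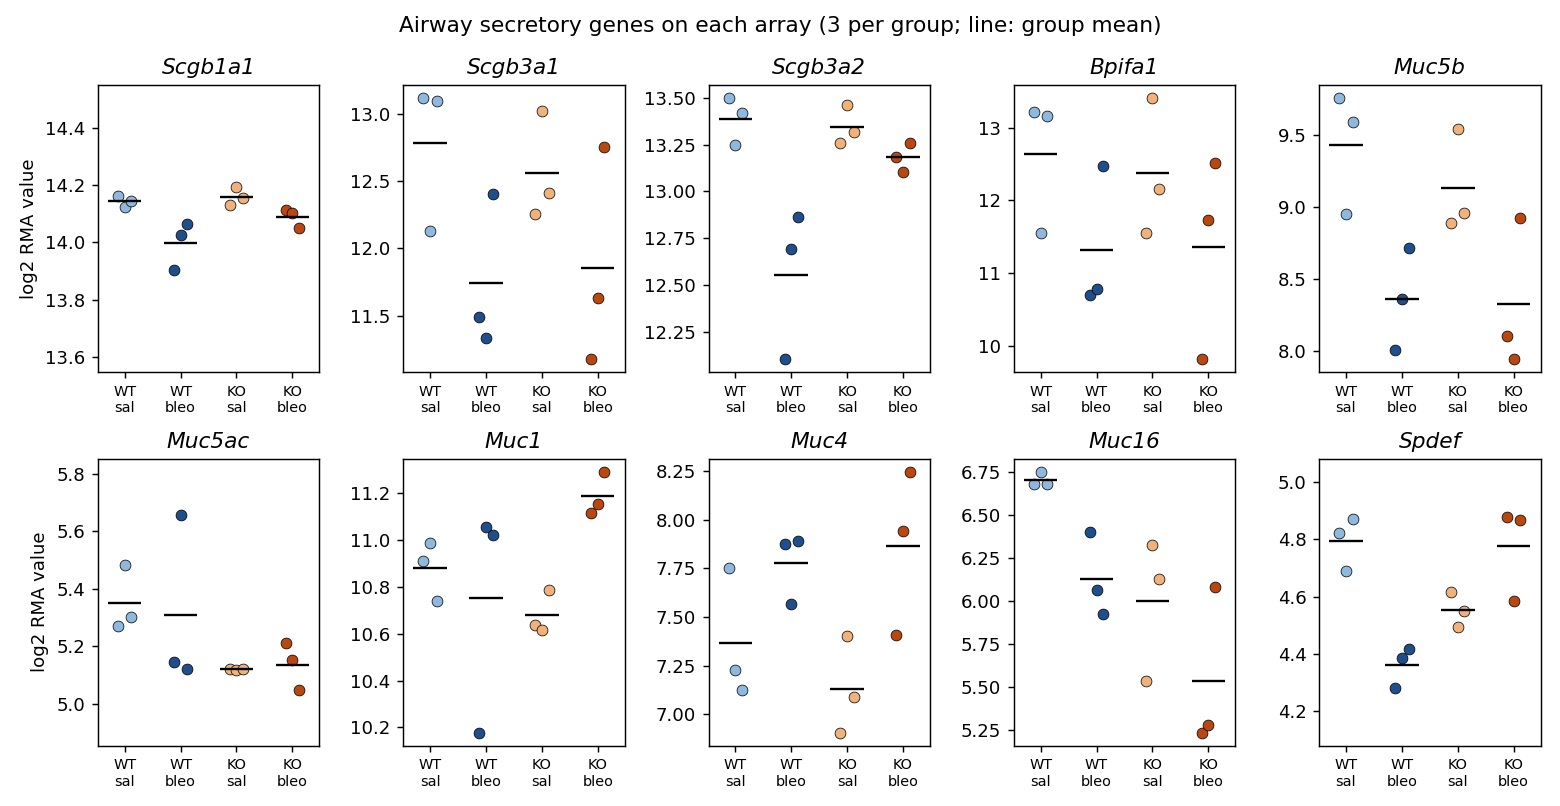
Log2 RMA value (y axis) of the 10 airway secretory genes on each array, with wild type (WT) and knockout (KO) lungs after saline (sal) or bleomycin (bleo) on the x axis; points are the 3 arrays of a group, in replicate order, lines are group means, and each panel has its own scale. Scgb1a1 sits between 13.90 and 14.19 throughout, while Bpifa1 runs from 9.82 to 13.41.

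Scgb3a2, a secretoglobin of the distal airways, fell in wild type lungs and was higher in knockout than in wild type lungs after bleomycin. Its values were 13.50, 13.25 and 13.42 in wild type saline, 12.10, 12.69 and 12.86 in wild type bleomycin, 13.26, 13.46 and 13.32 in knockout saline and 13.19, 13.10 and 13.26 in knockout bleomycin lungs. The wild type bleomycin arrays were the 3 lowest of all 12, and they overlapped no other group. The wild type change was -0.84 ± 0.15 (SE, n = 3 arrays per group; 1.78-fold lower; adjusted p = 0.00127, limma). In knockout lungs the change was -0.16, with a 95% interval from -0.49 to 0.17 (adjusted p = 0.637). After bleomycin the knockout level exceeded the wild type level by 0.63 ± 0.15 (1.55-fold; adjusted p = 0.0146), but this call was lost when only those groups entered the fit (adjusted p = 0.0565). The difference between the responses was 0.67 ± 0.22 and did not pass (adjusted p = 0.0924); it passed when wild type bleomycin array 3 was left out (adjusted p = 0.0401).

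Scgb1a1, the main secretory protein of club cells, lay at the top of the range of the arrays, which limits what they could show of a change. Its values were 14.16, 14.12 and 14.14 in wild type saline, 13.90, 14.02 and 14.06 in wild type bleomycin, 14.13, 14.19 and 14.15 in knockout saline and 14.11, 14.10 and 14.05 in knockout bleomycin lungs. The highest value of any probe set on an array was 14.06 to 14.24, and Scgb1a1 lay 0 to 0.162 below it. In both genotypes all 3 bleomycin arrays were below all 3 saline arrays, by small margins. The changes of -0.15 ± 0.07 in wild type (adjusted p = 0.132) and -0.07 ± 0.07 in knockout (adjusted p = 0.654) did not pass the test.

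Scgb3a1, a secretoglobin of the larger airways, was lower on most bleomycin arrays of both genotypes but varied widely within groups. Its values were 13.12, 12.13 and 13.09 in wild type saline, 11.49, 11.33 and 12.41 in wild type bleomycin, 12.25, 13.02 and 12.41 in knockout saline and 11.18, 11.63 and 12.75 in knockout bleomycin lungs. Array 3 was the high one in both bleomycin groups and reached into the range of the saline arrays. The changes were -1.04 ± 0.40 in wild type (adjusted p = 0.0691) and -0.71 ± 0.40 in knockout lungs (adjusted p = 0.380). The wild type change passed without wild type saline array 2 (adjusted p = 0.0309), wild type bleomycin array 3 (adjusted p = 0.0285) or knockout bleomycin array 3 (adjusted p = 0.0303). The mean of both changes, a comparison added after the data were seen, was -0.87 ± 0.28 (adjusted p = 0.0339), and it lost its call in 8 of 12 fits that each left out 1 array (adjusted p from 0.00599 to 0.0852). The arrays whose omission ended it were wild type saline 1 and 3, wild type bleomycin 1 and 2, knockout saline 2 and 3 and knockout bleomycin 1 and 2.

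Bpifa1, an abundant antimicrobial and surfactant protein of the upper airways, had the widest spread of the 10 genes. Its values were 13.21, 11.55 and 13.16 in wild type saline, 10.69, 10.78 and 12.47 in wild type bleomycin, 11.55, 13.41 and 12.16 in knockout saline and 9.82, 11.73 and 12.51 in knockout bleomycin lungs. Bleomycin and saline arrays overlapped in both genotypes. The changes of -1.32 ± 0.70 in wild type (adjusted p = 0.185) and -1.02 ± 0.70 in knockout lungs (adjusted p = 0.492) did not pass. The wild type interval ran from -2.84 to 0.19, so this fit could not separate a large fall from none. With limma array weights the wild type change was -1.60 and passed narrowly (adjusted p = 0.0459).

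Muc5b, the gel-forming mucin of unchallenged airways, fell in wild type lungs and its value was also negative in the knockout. The arrays read 9.76, 8.95 and 9.59 in wild type saline, 8.01, 8.36 and 8.71 in wild type bleomycin, 8.89, 9.54 and 8.95 in knockout saline and 8.10, 7.94 and 8.92 in knockout bleomycin lungs. The wild type groups did not overlap, and in the knockout only array 3 of the bleomycin group reached the saline range. The wild type change was -1.07 ± 0.28 (2.10-fold lower; adjusted p = 0.0115), and it lost its call without wild type saline array 1 (adjusted p = 0.0534). In knockout lungs the change was -0.81 ± 0.28 (adjusted p = 0.142). The difference between the responses was 0.26, with an interval from -0.59 to 1.12 (adjusted p = 0.748). The mean of both changes was -0.94 ± 0.20 (adjusted p = 0.00330) and was called in each of the 12 fits that left out 1 array.

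Muc5ac, the gel-forming mucin that goblet cells add in allergic and inflamed airways, did not pass in either genotype. Its values were 5.27, 5.48 and 5.30 in wild type saline, 5.14, 5.66 and 5.12 in wild type bleomycin, 5.12, 5.12 and 5.12 in knockout saline and 5.21, 5.15 and 5.05 in knockout bleomycin lungs. Wild type bleomycin array 2 was the highest of the 12. The changes were -0.04 ± 0.12 in wild type (adjusted p = 0.825) and 0.02 ± 0.12 in knockout lungs (adjusted p = 0.966), with 95% intervals from -0.31 to 0.22 and from -0.25 to 0.28.

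Among the membrane mucins, Muc1, which alveolar type 2 cells also make, did not pass in either genotype. Its values were 10.91, 10.98 and 10.74 in wild type saline, 10.18, 11.05 and 11.02 in wild type bleomycin, 10.64, 10.62 and 10.79 in knockout saline and 11.11, 11.15 and 11.29 in knockout bleomycin lungs. The knockout bleomycin arrays were the 3 highest of the 12, and wild type bleomycin array 1 was the lowest. The changes were -0.13 ± 0.18 in wild type (adjusted p = 0.644) and 0.50 ± 0.18 in knockout lungs (adjusted p = 0.156). The knockout change passed without wild type bleomycin array 1, which enters the shared estimate of spread (adjusted p = 0.00754), and when only the knockout groups were fitted (adjusted p = 0.0176). The difference between the responses was 0.63 ± 0.26 (adjusted p = 0.173).

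Muc4, a large membrane mucin that binds the receptor ErbB2, was the 1 gene of the 10 with positive values in both genotypes on the probe set used. That probe set, 1438555_x_at, read 7.75, 7.23 and 7.13 in wild type saline, 7.88, 7.57 and 7.89 in wild type bleomycin, 6.90, 7.40 and 7.09 in knockout saline and 7.41, 7.94 and 8.25 in knockout bleomycin lungs. Saline and bleomycin arrays were narrowly apart in the knockout and overlapped in wild type through wild type saline array 1. The changes were 0.41 ± 0.21 (adjusted p = 0.169) and 0.73 ± 0.21 (adjusted p = 0.0809). Without knockout bleomycin array 1 the knockout change passed, at 0.96 (adjusted p = 0.0176).

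The mean of both Muc4 changes was 0.57 ± 0.15 (1.49-fold higher; adjusted p = 0.0115), called in each of 12 fits without 1 array. A second Muc4 probe set, 1427398_at, read 6.70, 5.37 and 6.29, then 6.66, 6.41 and 6.83, then 6.09, 6.55 and 6.11, and last 6.55, 6.55 and 7.30, in the same order of groups. Its mean change was close to that of the first, at 0.53 ± 0.21, but was not called in a limma fit over all 45101 probe sets (adjusted p = 0.100), where 1438555_x_at was (adjusted p = 0.0191) and 18.7% of probe sets were. The remaining probe set, 1432119_at, had group means from 2.96 to 3.07 and could not inform on Muc4.

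Muc16, a membrane mucin of airway surface and mesothelial cells, was lower in knockout lungs and lower after bleomycin when the comparisons were averaged. Its values were 6.68, 6.75 and 6.68 in wild type saline, 6.40, 6.06 and 5.92 in wild type bleomycin, 5.54, 6.32 and 6.13 in knockout saline and 5.23, 5.28 and 6.08 in knockout bleomycin lungs. Wild type saline arrays were the 3 highest of the 12, close to each other, while the knockout arrays spread widely. The knockout minus wild type difference was -0.70 ± 0.23 after saline (adjusted p = 0.272) and -0.60 ± 0.23 after bleomycin (adjusted p = 0.0966), where it passed without knockout bleomycin array 3 (-0.87, adjusted p = 0.0118). Averaged over both treatments it was -0.65 ± 0.16 (1.57-fold lower; adjusted p = 0.0232), the only call among the 10 genes in that comparison, where 8.96% of all genes were called. It lost the call in 5 of 12 fits without 1 array: wild type saline 2, wild type bleomycin 1, knockout saline 1 and knockout bleomycin 1 and 2 (adjusted p up to 0.0609).

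The bleomycin changes of Muc16 were -0.57 ± 0.23 in wild type (adjusted p = 0.0781) and -0.46 ± 0.23 in knockout lungs (adjusted p = 0.304). The wild type change passed without knockout saline array 1 (adjusted p = 0.0476), without knockout bleomycin array 3 (adjusted p = 0.0278) and when only the wild type groups were fitted (adjusted p = 0.0118). Their mean was -0.52 ± 0.16 (adjusted p = 0.0281), which lost its call in 8 of 12 fits without 1 array (adjusted p up to 0.0737): wild type saline 1 and 2, wild type bleomycin 2 and 3, knockout saline 2 and 3 and knockout bleomycin 1 and 2. The knockout minus wild type differences of 8 mesothelial marker genes had a median of -0.47 after saline. There 0 of 8 passed limma's adjusted test, against 0.489% of all genes. After bleomycin their median was -0.32, and 1 of 8 was called, against 15.4% of all genes. That gene was Msln, lower in knockout than in wild type lungs by 1.57 (adjusted p = 0.00479). Summed over the 8 mesothelial markers, the linear level was 3265 to 4097 in wild type saline, 3497 to 4246 in wild type bleomycin, 2816 to 3537 in knockout saline and 2763 to 3470 in knockout bleomycin lungs; their part in the Muc16 result was not tested.

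Spdef, the transcription factor of goblet cells, was the gene whose bleomycin response differed between the genotypes. Its values were 4.82, 4.69 and 4.87 in wild type saline, 4.28, 4.39 and 4.42 in wild type bleomycin, 4.62, 4.49 and 4.55 in knockout saline and 4.88, 4.59 and 4.87 in knockout bleomycin lungs. Wild type bleomycin arrays were the 3 lowest of the 12, and all knockout bleomycin arrays lay above them. The change was -0.43 ± 0.09 in wild type (1.35-fold lower; adjusted p = 0.00336) and 0.22 ± 0.09 in knockout lungs, where it did not pass (adjusted p = 0.212). The difference between these responses was 0.66 ± 0.13 (95% interval from 0.38 to 0.93; adjusted p = 0.0142). After bleomycin the knockout level was higher by 0.42 ± 0.09 (adjusted p = 0.00840). These calls held in each of 12 fits without 1 array. The probe set lay below the array median on every array, and how its log2 changes scale with RNA was not tested.

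Between the genotypes after saline, limma called none of the 10 genes, against 0.489% of all genes, and 2 had an unadjusted p under 0.05: Muc16 and Spdef. All 3 knockout arrays lay below all 3 wild type arrays for 3 genes, Muc5ac, Muc16 and Spdef, against 9.45% of all genes. The other 8 differences ran from -0.30 to 0.02 (adjusted p from 0.564 to 0.962). After bleomycin 2 of 10 were called higher in the knockout, Scgb3a2 and Spdef, against 15.4% of all genes called and 7.52% called higher. In 3 genes, Scgb3a2, Muc1 and Spdef, all knockout arrays lay above all wild type arrays, and no gene of the 10 had them all below; over all genes, 33.3% were apart in either direction. This comparison, the wild type response and the difference between responses all use the same wild type bleomycin arrays. With both genotypes averaged, Scgb3a1, Scgb3a2, Muc5b and Muc16 were called lower after bleomycin and Muc4 higher. These were 5 of 10 genes, against 27.1% of all genes (13.7% lower and 13.4% higher). The Scgb3a1 value sat at the threshold in the fit over all probe sets (adjusted p = 0.0508). In lung tissue as a whole, fewer cells of a type and less RNA per cell cannot be told apart.

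**Figure D2:**
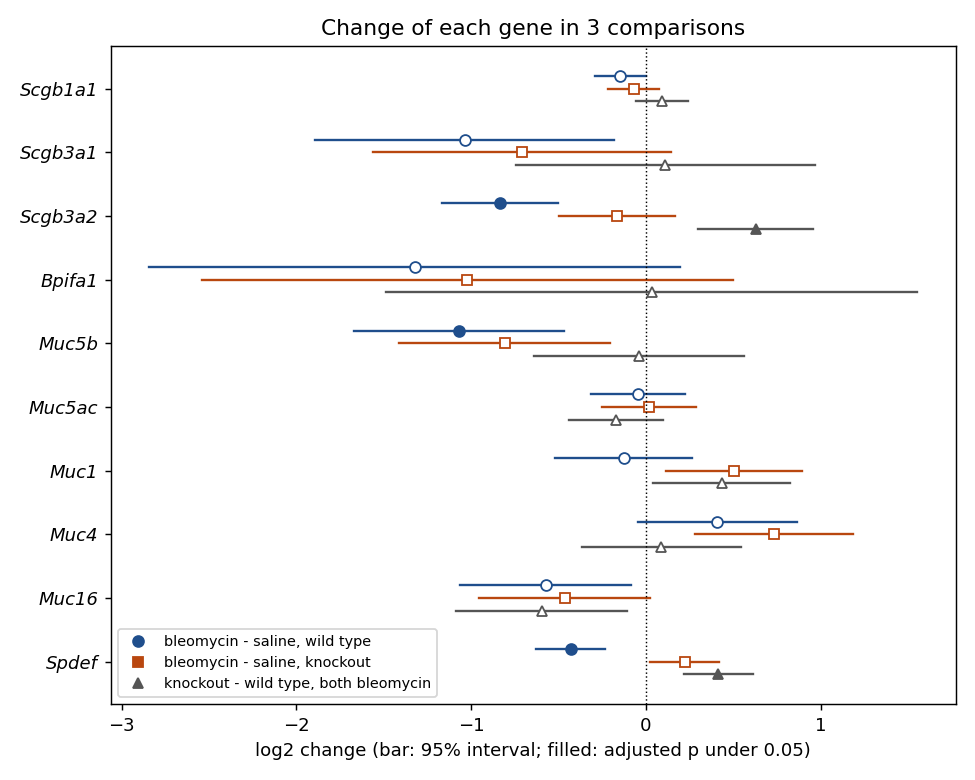
Log2 change (x axis) of each airway secretory gene (y axis) for bleomycin minus saline in wild type, bleomycin minus saline in knockout, and knockout minus wild type after bleomycin; bars are 95% intervals and filled symbols have an adjusted p under 0.05. Filled symbols are Scgb3a2, Muc5b and Spdef in wild type and Scgb3a2 and Spdef between genotypes, and the widest bars are those of Bpifa1.

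Arrays of the same group differed far more for some of these genes than for most genes. The within-group SD was 1.09 for Bpifa1, 0.607 for Scgb3a1 and 0.423 for Muc5b, all above the 99th percentile of 18194 genes, whose median SD was 0.125. Muc16 (0.338) and Muc4 (0.312) followed, then Muc1 (0.264) and Scgb3a2 (0.218). Spdef (0.106) and Scgb1a1 (0.0482) varied less than the median gene.

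The deviations were shared. Over the 12 arrays, deviations from the group means correlated at r = 0.94 between Scgb3a1 and Bpifa1, 0.91 between Scgb3a1 and Muc5b and 0.81 between Muc5b and Bpifa1. These 3 genes were low on wild type saline array 2 and high on wild type bleomycin array 3, knockout saline array 2 and knockout bleomycin array 3. A second set, Scgb1a1 with Scgb3a2 (r = 0.87) and Scgb3a2 with Muc1 (r = 0.80), was set apart by wild type bleomycin array 1, on which all 3 genes had their lowest deviation. Scgb1a1 and Scgb3a1 correlated at r = 0.20. These values describe 12 arrays that share their processing, and carry no test.

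**Figure D3:**
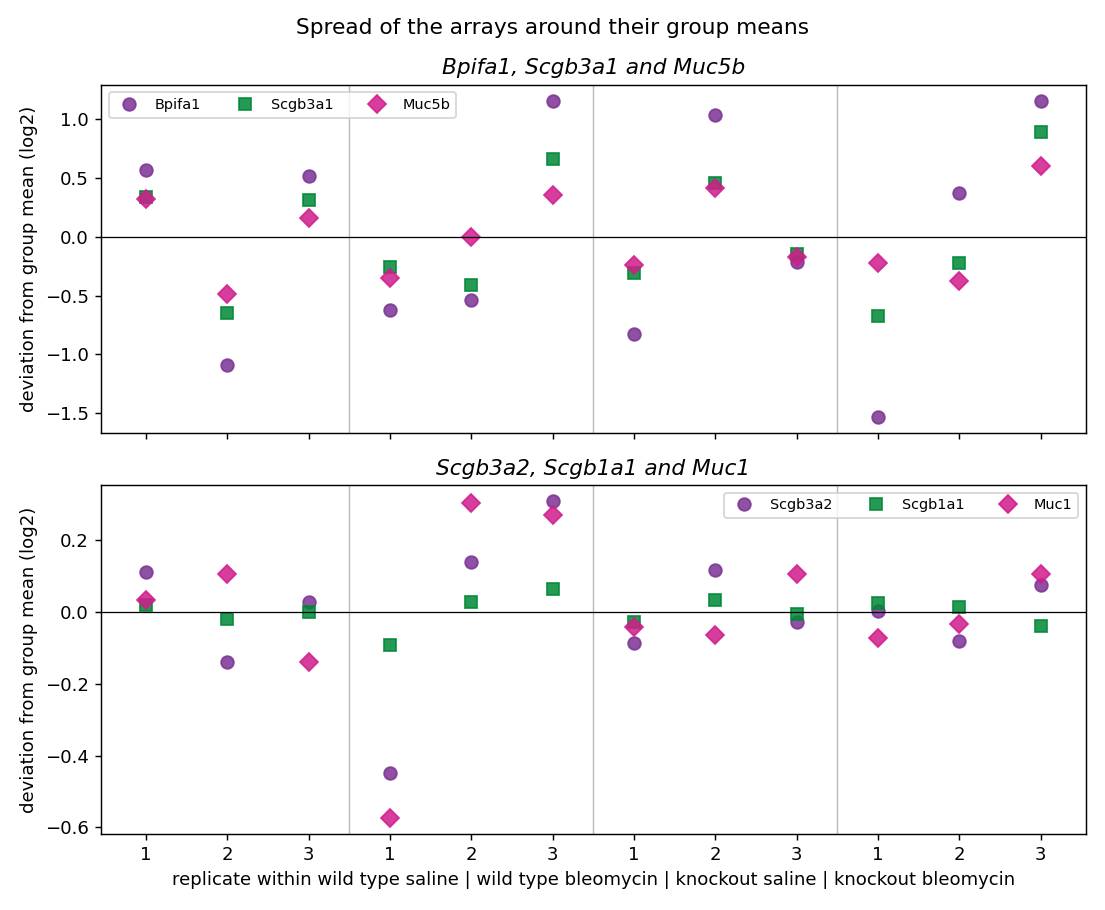
Deviation of each array from its group mean (log2, y axis) by array (x axis, 3 replicates in each of 4 groups) for Bpifa1, Scgb3a1 and Muc5b (upper panel) and for Scgb3a2, Scgb1a1 and Muc1 (lower panel, with a narrower scale). The genes of a panel share their widest deviations but not every sign: Bpifa1, Scgb3a1 and Muc5b are all high on array 3 of both bleomycin groups, and Scgb3a2, Scgb1a1 and Muc1 are all low on wild type bleomycin array 1.

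For each of 9 genes with a mean of at least 5, the 3 genes with the most similar deviations over the 12 arrays were looked up. For Bpifa1 they were Ltf, encoding lactoferrin (r = 0.98), Krt5, a keratin of basal cells (r = 0.96), and Wdr95 (r = 0.96). For Scgb3a1 they were the antimicrobial lectin Reg3g (r = 0.95), Mlf1 (r = 0.95) and Kcnq1ot1 (r = 0.95). For Muc5b they were Nme5 (r = 0.96), Serpina9 (r = 0.95) and the trefoil peptide Tff2 (r = 0.95), and for Muc4 they were Cfap54, a gene of motile cilia (r = 0.98), Mfsd2b (r = 0.91) and Rgs13 (r = 0.90). For Scgb3a2 they were Atp11a (r = 0.96), the secreted inhibitor Wfdc2 (r = 0.96) and Cfap36 (r = 0.96). The nearest to Scgb1a1 were Uck1 (r = 0.96), Myo5c (r = 0.95) and Mob3b (r = 0.95), and to Muc1 were Serpinb6b, Ddx6 and Mtrf1l (r from 0.97 to 0.98). Muc16 came nearest to Spaca4 (r = 0.94), Cmya5 (r = 0.92) and Ldhc (r = 0.92), and Muc5ac to Scrt1 (r = 0.96), 1110028F18Rik (r = 0.95) and Klhl15 (r = 0.95).

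Marker lists of other cells, and lists of other secretory cell genes, moved with these deviations. The mean deviation of the basal cell markers correlated with Bpifa1 at r = 0.88 and with Scgb3a1 at r = 0.84, and that of ciliated cell markers with Muc5b at r = 0.91. Cardiac muscle markers, which a lung sample can carry from the walls of the pulmonary veins or from the heart, correlated with Bpifa1 at r = 0.84 and with Scgb3a1 at r = 0.83. For airway cartilage markers these values were 0.15 and 0.05. The cartilage markers had a mean log2 level of only 3.83 to 4.17 on the arrays, below the array medians of 5.581 to 5.675. Their deviations could therefore not inform on cartilage content. Alveolar type 2 cell markers correlated with Muc1 at r = 0.92 and with Scgb3a2 at r = 0.86. The part of these cells and tissues in the results was not tested.

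Summed linear levels of the marker lists were read for each group. Such a sum is set mostly by the brightest genes of a list and can hide changes of the others. The 7 cardiac muscle markers summed to 6741 to 9803 in wild type saline, 1934 to 2858 in wild type bleomycin, 7046 to 11373 in knockout saline and 2074 to 8362 in knockout bleomycin lungs. All 7 were called lower in wild type, against 14.4% of all genes, with a median change of -1.88. In knockout lungs none was called, against 3.26% of all genes, but all 7 changes were negative. They ran from -1.90 to -0.91, with a median of -1.20. None of the 7 had a called difference between responses, against 5.02% of all genes. The 9 alveolar type 2 markers summed to 73544 to 76543, 48110 to 68642, 71984 to 74484 and 78164 to 82452 in the same order, with the lowest sum on wild type bleomycin array 1. Of these 9 markers, 5 were called lower in wild type, against 14.4% of all genes, with Sftpa1 at -0.72 (adjusted p = 0.0102). After bleomycin 7 were called higher in knockout than wild type lungs, against 7.52% of all genes. The 8 macrophage markers summed to 16194 to 17061, 18700 to 19688, 16587 to 17454 and 18914 to 19516. Of these 8 markers, 4 were called higher in wild type lungs, against 13.3% of all genes, and none lower. In knockout lungs 3 were called higher and none lower, against 3.26% of all genes called in either direction. The changes of the 8 markers ran from -0.25 to 2.16 in wild type and from -0.10 to 1.14 in knockout lungs, with Cd68 at the top of both (adjusted p = 1.58e-07 and 0.000276).

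Other genes of airway secretory cells were read from lists of their own. Of 13 measured club cell genes outside the 10, 11 were called lower in wild type lungs after bleomycin and none higher, against 14.4% of all genes called lower. The median change of the 13 was -0.99 against -0.04 over all genes. Cyp4b1, a cytochrome P450 of club cells, fell by 1.64 (adjusted p = 1.89e-05), Lypd2 fell by 2.35 (adjusted p = 0.000114), the glutathione transferase Gsta3 fell by 1.70 (adjusted p = 0.000188) and the aldehyde dehydrogenase Aldh1a1 fell by 0.68 (adjusted p = 0.000644). In knockout lungs limma called 0 of 13, against 3.26% of all genes, with a median of -0.19. After bleomycin 10 of the 13 were called higher in knockout than in wild type lungs, against 7.52% of all genes. The median of the 13 differences was 0.85. The difference between the responses was called for 1 of the 13, Cyp4b1 (1.20 ± 0.24, adjusted p = 0.0154), against 5.02% of all genes, and did not pass for the other 12. The 13 genes summed to 53309 to 61245 in wild type saline, 25315 to 39173 in wild type bleomycin, 54121 to 59802 in knockout saline and 47675 to 57027 in knockout bleomycin lungs. The wild type bleomycin arrays were below all others, with array 1 the lowest.

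Goblet and gland cell products moved both ways. Of 15 genes, 4 were called lower and 1 higher in wild type lungs, with a median of 0.07 over the 15. The 5 of 15 called stood near the 27.7% of all genes. The gene called higher was Slc26a4, which encodes the anion exchanger pendrin. It rose by 2.48 ± 0.29 in wild type (adjusted p = 4.12e-05) and by 1.66 ± 0.29 in knockout lungs (adjusted p = 0.00826). It was the 1 gene of the 15 called in the knockout, against 3.26% of all genes. Tff2 fell by 1.49 (adjusted p = 0.00304), the immunoglobulin transporter Pigr fell by 1.08 (adjusted p = 0.00369) and Bpifb1, a BPI fold protein of mucous cells, fell by 1.84 (adjusted p = 0.0237) in wild type. In knockout lungs the values for these 3 genes were -0.93, -0.69 and -1.56, and none passed (adjusted p from 0.131 to 0.15).

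Of 8 other measured genes listed by a mucin name, 2 were called in wild type lungs, close to the 27.7% of all genes. Muc20 fell by 0.70 (adjusted p = 0.00211). Mcam, an endothelial and pericyte adhesion molecule that was listed only by its other, mucin name, rose by 0.55 (adjusted p = 0.000767). Of 9 other secretoglobins and BPI fold genes, 2 were called lower in wild type, against 14.4% of all genes. Bpifb5 fell by 1.12 (adjusted p = 0.000227), with a difference between responses of 1.16 ± 0.23 (adjusted p = 0.0142), and Scgb2b27 fell by 0.26 (adjusted p = 0.0325). None of either list was called in the knockout after bleomycin, against 3.26% of all genes.

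Among 26 regulators of secretory cell fate, 5 were called lower and 2 higher in wild type lungs, with a median of -0.16 over the 26. None was called in the knockout, against 3.26% of all genes. The 7 of 26 called in wild type lungs were no more than the background share of 27.7%. The receptor chain Il4ra, shared by interleukins 4 and 13, rose by 0.83 (adjusted p = 0.000748). The forkhead factor Foxa1 fell by 0.997 (adjusted p = 0.00278), Cebpa fell by 0.44 (adjusted p = 0.00406) and Notch1 fell by 0.38 (adjusted p = 0.00580). After bleomycin 5 were called higher and 2 lower in knockout than wild type lungs, against 15.4% of all genes called in either direction. Foxa1 was higher by 0.87 (adjusted p = 0.0125) and Il4ra lower, at -0.81 (adjusted p = 0.00215). The difference between responses was called for 1 of the 26, Cebpa (0.55, adjusted p = 0.0382), against 5.02% of all genes.

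Enzymes that build mucin-type O-glycans rose in part in wild type lungs: 7 of 17 were called higher and none lower, with a median of 0.18, against 13.3% of all genes called higher. Gcnt1, which makes core 2 branches, rose by 0.79 (adjusted p = 2.99e-05), and the initiating transferases Galnt7, Galnt1 and Galnt3 rose by 0.58 (adjusted p = 0.00155), 0.33 (adjusted p = 0.00320) and 0.36 (adjusted p = 0.0121). Gcnt1 did not pass in the knockout (0.03, adjusted p = 0.906). The difference between responses was called for 1 of the 17, Gcnt1 (-0.76 ± 0.12, adjusted p = 0.00668), against 5.02% of all genes. These enzymes act on many proteins and are made by many cell types.

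Genes of mucin granule release divided evenly in wild type lungs, with 4 of 13 called higher and 4 called lower, against 13.3% and 14.4% of all genes. The nucleotide receptor P2ry2, which triggers mucin release, rose by 0.88 in wild type (adjusted p = 4.47e-05) and by 0.56 in knockout lungs (adjusted p = 0.0114). Marcks, which links granules to actin, rose by 0.43 (adjusted p = 0.00110), the actin-severing protein Scin by 0.57 (adjusted p = 0.00111), and the granule GTPase Rab3d fell by 0.42 (adjusted p = 0.00369). The difference between responses was called for 1 of the 13, Scin (-0.61, adjusted p = 0.0314), against 5.02% of all genes.

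Markers of ciliated cells, the neighbours of secretory cells in the airway lining, were tested in the same way. In wild type lungs 8 of 10 were called lower, against 14.4% of all genes, with a median change of -0.79 over the 10. In knockout lungs limma called none, against 3.26%, with a median of -0.21. Tppp3 fell by 1.36 (adjusted p = 8.68e-06) and Dynlrb2 fell by 0.95 (adjusted p = 0.000103), and their differences between responses were 1.12 (adjusted p = 0.00659) and 0.74 (adjusted p = 0.0314). Only these 2 of the 10 differences were called, against 5.02% of all genes. The 10 markers summed to 5777 to 6762 in wild type saline, 2581 to 3465 in wild type bleomycin, 5954 to 7027 in knockout saline and 4965 to 5890 in knockout bleomycin lungs. Of 7 basal cell markers 1 was called higher in wild type, Krt14 by 0.99 (adjusted p = 0.000221), close to the 13.3% of all genes. The changes of the 7 ran from -0.85 to 0.99, with a median of 0.08. Of 5 squamous markers 2 were called higher, against the same 13.3%: Sprr1a by 2.21 (adjusted p = 6.89e-06) and Krt6a by 0.33 (adjusted p = 0.00843). No marker of airway cartilage or of thyroid was called by limma in any of the 5 comparisons, but the mean levels of both lists lay below the array medians.

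**Figure D4:**
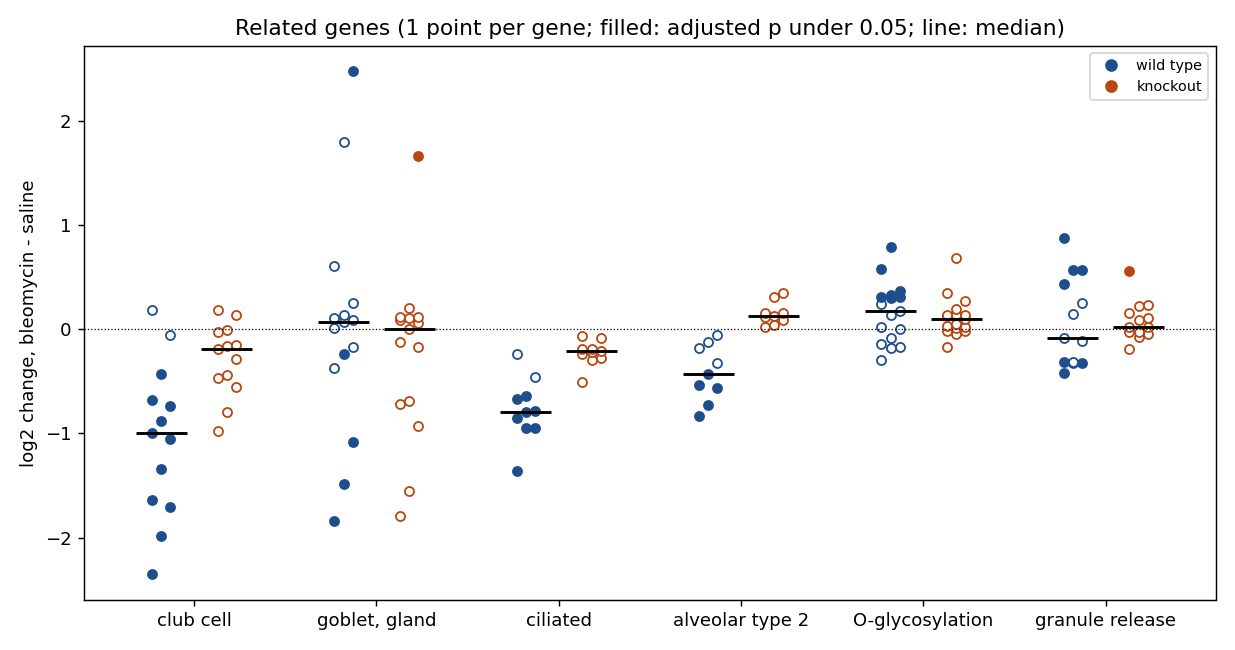
Log2 change after bleomycin (y axis) of club cell, goblet and gland, ciliated, alveolar type 2, mucin O-glycosylation and granule release genes (x axis) in wild type and knockout lungs; each point is 1 gene, filled where the adjusted p is under 0.05, and lines are medians. Club cell and ciliated genes lie mostly below 0 in wild type, with medians of -0.99 and -0.79, and nearer 0 in knockout lungs, with medians of -0.19 and -0.21.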

How the data were processed

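RNA of 12 mouse lung samples was read on Affymetrix arrays. The authors deposited log2 values made with RMA, and affy and limma are also named, per the submitters' processing notes; versions and genome build are not given in the sources used here. Of 45101 probe sets, 34958 had 1 gene symbol, 932 several and 9211 none in the platform annotation; 34754 matched RefSeq by Entrez ID. Each of 18194 genes was read by its probe set of highest mean. Groups were compared with limma 3.58.1 (R 4.3.3; lmFit, eBayes, 8 residual and 4.86 prior degrees of freedom) on all 12 arrays, with Benjamini-Hochberg adjustment over all genes. The script was tested on simulated data. A second fit used all probe sets. There were 5 comparisons; 2 averaged ones were added after the data were seen.

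The genes and lists (16 lists, 167 of 184 names measured) were chosen with earlier results of these data known. All 10 genes are named; of each list, up to 4 called genes with the smallest p in wild type bleomycin, then in other comparisons; Retnlb once; and the 3 genes most like each gene with a mean of at least 5. Sequences came from RefSeq. Alternatives covered filter, scaling, moderation, probe set choice, groups fitted, array weights, replicate block and each array left out. Array number limits the precision. Same-numbered arrays were not paired: the correlations of their deviations ran from -0.411 to 0.4 over 18 pairs.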

Additional observations from a re-analysis of the deposited data

Results flagged for a closer look

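The bleomycin response of Spdef differed between genotypes by 0.66 (knockout minus wild type, log2), by the interaction term of the limma fit over all genes (adjusted p = 0.0142, n = 3 arrays per group). Its level fell on all 3 wild type bleomycin arrays relative to every wild type saline array, and the knockout arrays overlapped. The probe set had a mean of 4.62 against array medians of 5.581 to 5.675, and it is no longer tested when only genes of mean 5 or more are kept.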

How the results depend on the processing

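The number of the 10 genes called depended on a few settings. With limma array weights it was 6 in wild type (3 as reported), 2 in knockout (0 as reported; Muc1, adjusted p = 0.0379, and Muc4, adjusted p = 0.0435), 2 for the difference between responses (Scgb3a2, adjusted p = 0.0274, joined Spdef) and 2 for genotype after saline (Muc16, adjusted p = 0.0412, and Spdef, adjusted p = 0.0313); the cause was not tested. In wild type, array weights added Scgb3a1 (adjusted p = 0.00985), Muc16 (adjusted p = 0.0242) and Bpifa1 (adjusted p = 0.0459). Without genes of mean under 5, which leaves out Spdef, the number called was 0 for the difference and 1 for genotype after bleomycin. With only the groups compared in the fit, it was 1 in knockout and 1 for genotype after bleomycin. Leaving out 1 array at a time gave 2 to 5 in wild type (5 without knockout bleomycin array 3), 0 to 1 in knockout, 1 to 2 for the difference, 2 to 3 for genotype after bleomycin (Muc16 added without knockout bleomycin array 3), 3 to 6 for averaged bleomycin and 0 to 2 for averaged genotype. The replicate block, on numbers that do not pair the arrays, gave 4 calls in wild type (Scgb3a1 added, adjusted p = 0.0456), 0 in knockout, 1 for the difference, 0 for genotype after saline, 2 for genotype after bleomycin, 5 for averaged bleomycin and 1 for averaged genotype. Uncalled values near 0 changed sign: the wild type change was 0.0160 for Muc1 and 0.0604 for Muc5ac with array weights, and with 1 array left out it ran from -0.28 to 0.16 for Muc1 and from -0.22 to 0.0499 for Muc5ac, and from -0.0203 to 0.0612 for Muc5ac in knockout. With trend and robust moderation the averaged Scgb3a1 fall was no longer called (adjusted p = 0.0978). Over the changes given for single genes, 384 values with 1 array left out kept direction and side of the threshold. A further 9 became called, 22 lost their call and 5 changed sign. Under the settings that kept all arrays or compared groups, 286 values kept both, 11 became called, 2 lost their call and 2 changed sign. Signal limits Scgb1a1, which lay within 0.162 of the highest value on each array; whether Muc5ac and Spdef were above background was not tested.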

Other observations

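Clca1, a goblet cell secreted protein of the goblet and gland list, varied widely between arrays of a group, and it was chosen after its values were seen. It read 6.28, 5.21 and 7.07 in wild type saline, 5.08, 10.04 and 8.83 in wild type bleomycin, 9.54, 5.87 and 5.55 in knockout saline and 4.61, 4.74 and 6.24 in knockout bleomycin lungs. Its changes were 1.80 ± 1.18 in wild type (adjusted p = 0.284) and -1.79 in knockout lungs (adjusted p = 0.470, limma). The knockout minus wild type difference after bleomycin was -2.78 ± 1.18 (adjusted p = 0.135), and the difference between the responses was -3.58 ± 1.66 (adjusted p = 0.231); neither passed. Single arrays, wild type bleomycin 2 and 3 and knockout saline 1, were the high ones, and Muc5ac was highest of all arrays on wild type bleomycin 2.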
